A study of Mus musculus with 10 samples.

Results

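Expression of 10 genes of the apical polarity machinery was examined in mouse enamel organ. The genes were taken by symbol from the deposited tables: the PAR scaffold gene Pard3, the PAR6 genes Pard6a, Pard6b and Pard6g, the atypical protein kinase C genes Prkci and Prkcz, the Crumbs complex genes Crb3 and Patj, and the MAGI scaffold genes Magi1 and Magi3. Of the 10, 10 were among the 16292 genes listed for ameloblasts and 9 among the 16638 listed for the stratum intermedium, where Pard6b was not listed. The samples were ameloblasts and stratum intermedium, cut separately by laser from frozen sections of hemi-mandibles of claudin-10 knockout (KO) and wild-type (WT) mice. For each layer there were 3 KO and 2 WT RNA-seq libraries of polyA RNA. Library names carried the prefixes KO1, KO3, KO9, WT10 and WT5 in both layers, which were taken as 5 mice, although the labels do not say so. If the libraries are not from separate mice, p-values measure the spread between these libraries only. The labels give no age or strain, and they do not say which part of Cldn10 was deleted or whether the deletion was limited to some cells.

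Epithelial cells divide their surface into an apical and a basolateral domain. PAR3 gathers at the apical junction and recruits PAR6 bound to an atypical protein kinase C, and PAR6 also binds the active form of the small GTPase CDC42. The Crumbs complex, made of a Crumbs membrane protein, PALS1 and PATJ, holds the apical domain, and the kinase keeps basolateral proteins such as LGL out of it. MAGI proteins are scaffolds of the tight junction. Ameloblasts are tall, strongly polarized cells that secrete enamel matrix from their apical end, whereas the stratum intermedium is a layer of low cells lying on their basal side.

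The members differ widely in size (GRCm38 annotation). Pard3 (ENSMUSG00000025812) spans chromosome 8 from 127063893 to 127612286 with 14506 bases of annotated exon. Pard6a (ENSMUSG00000005699), also on chromosome 8 from 105701148 to 105703496, has 1582 bases, and Crb3 (ENSMUSG00000044279), on chromosome 17 from 57059105 to 57065918, has 1564. Counts of long and short genes cannot be set side by side, so levels are compared between genes only per kb of exon. Prkci (ENSMUSG00000037643) lies on chromosome 3 from 30995747 to 31052959 and Prkcz (ENSMUSG00000029053) on chromosome 4 from 155260129 to 155361361. Patj (ENSMUSG00000061859) lies on chromosome 4 from 98395785 to 98719603, Magi1 (ENSMUSG00000045095) on chromosome 6 from 93675455 to 94283917 and Magi3 (ENSMUSG00000052539) on chromosome 3 from 104013259 to 104220374. Pard6b (ENSMUSG00000044641) lies on chromosome 2 from 168081004 to 168101203. Exons of Crb3 overlapped those of a gene on the opposite strand, Dennd1c, by 14 bases, and the other members overlapped no annotated exon of another gene.

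Promoters are shown for both kinase genes and both MAGI genes, because these are the pairs of related genes whose values are compared within a library below. Each window runs from 250 bases before to 50 bases after a RefSeq transcription start (GRCm38.p6), read 5′ to 3′ on the gene's strand. For Prkcz and Magi1, which have 3 and 2 listed starts, the most upstream of these was taken. The start taken for Magi1 lies inside the annotated gene, which runs to 94283917 on this strand. Its annotated 5′ end is therefore not shown. Capitals mark matches on either strand to the GC box GGGCGG, the CCAAT box CCAAT, the E-box CAGGTG bound by Snail proteins, and TAATCC, a motif of PITX factors.
Prkci, chr3:30995521-30995820, plus strand: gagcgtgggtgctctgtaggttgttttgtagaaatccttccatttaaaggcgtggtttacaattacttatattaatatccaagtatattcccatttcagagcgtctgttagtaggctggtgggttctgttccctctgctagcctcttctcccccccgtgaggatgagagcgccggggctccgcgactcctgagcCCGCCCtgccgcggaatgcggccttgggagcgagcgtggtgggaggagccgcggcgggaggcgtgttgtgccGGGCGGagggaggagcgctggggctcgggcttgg
Prkcz, chr4:155361379-155361678, minus strand: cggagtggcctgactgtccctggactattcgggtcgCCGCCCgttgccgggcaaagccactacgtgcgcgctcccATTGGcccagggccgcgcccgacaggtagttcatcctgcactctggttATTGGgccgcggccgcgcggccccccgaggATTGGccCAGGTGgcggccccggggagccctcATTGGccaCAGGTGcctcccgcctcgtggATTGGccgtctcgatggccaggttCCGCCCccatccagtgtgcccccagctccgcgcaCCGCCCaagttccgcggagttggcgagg
Magi1, chr6:93913641-93913940, minus strand: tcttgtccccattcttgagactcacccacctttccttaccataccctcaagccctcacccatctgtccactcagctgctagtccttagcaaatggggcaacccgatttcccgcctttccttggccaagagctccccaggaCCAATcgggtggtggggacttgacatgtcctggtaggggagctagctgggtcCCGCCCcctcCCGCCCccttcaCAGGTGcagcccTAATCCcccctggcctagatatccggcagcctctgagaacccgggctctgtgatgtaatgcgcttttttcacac
Magi3, chr3:104220357-104220656, minus strand: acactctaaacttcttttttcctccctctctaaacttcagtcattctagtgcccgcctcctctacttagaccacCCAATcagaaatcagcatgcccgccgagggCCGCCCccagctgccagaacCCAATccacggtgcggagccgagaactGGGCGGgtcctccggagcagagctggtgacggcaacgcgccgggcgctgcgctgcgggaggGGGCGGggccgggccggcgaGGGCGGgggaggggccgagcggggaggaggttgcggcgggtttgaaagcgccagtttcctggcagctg

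The Prkcz window held 5 CCAAT boxes, 3 GC boxes and 2 CAGGTG matches, whereas the Prkci window held 2 GC boxes and none of the others. The Magi1 window, at a start inside the gene, had 8 CG dinucleotides, against 31 for Prkcz and 22 for Prkci. It held 2 GC boxes, 1 CCAAT box, 1 CAGGTG and 1 TAATCC. The Magi3 window had 26 CG dinucleotides, 4 GC boxes and 2 CCAAT boxes. In the 32851 promoter windows of the same length, a GC box was found in 35.7%, a CCAAT box in 37.4%, CAGGTG in 20.2% and TAATCC in 7.06%. TATAAA, present in 13.6% of all windows, and the Grainyhead motif AACCNGGTT, present in 0.271%, were in none of these 4 windows. The upstream window of Crb3, also inside the annotated gene, held 4 CAGGTG matches and that of Patj 3. A match describes the letters of the window only, and the deposited values are sums over all starts of a gene.

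Deposited values are normalized counts, scaled by the authors within each table, and they summed to between 21006977 and 26856177 per library. Both captures held other tissue: transcripts of odontoblasts and pulp (5 genes) made up 1.75% to 4.68% of a library. The 7 ameloblast markers took 2.18% to 9.12% of an ameloblast library and 0.123% to 0.942% of a stratum intermedium library. The 7 stratum intermedium markers took 0.0779% to 0.188% of an ameloblast library and 0.144% to 0.395% of a stratum intermedium library, so the ranges overlapped for the second list and not for the first. In KO3 the second list took more of the ameloblast library (0.188%) than of the stratum intermedium library (0.163%). In every other mouse it took less. Libraries of WT10 stood apart with the most genes listed at 0 (706 in ameloblasts, 854 in the stratum intermedium). Those of WT5 had the lowest share of 7 epithelial markers (0.162% and 0.122%) and the highest share of 5 red blood cell markers (1.28% and 0.911%). Xist reached at least 5791 in KO1 and KO3, but no more than 33.2 in KO9, WT10 and WT5, so KO mice were of both sexes and WT mice of 1. In such bulk samples, fewer cells of a type and less RNA per cell cannot be told apart.

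Cldn10, the deleted gene, had all its KO values below its WT values in either layer. In ameloblasts it stood at 280.1, 408 and 149 in KO1, KO3 and KO9, against 600.1 in WT10 and 752 in WT5 (log2 difference -1.38, SE 0.46, limma adjusted p = 0.989). In the stratum intermedium it stood at 1003, 387 and 465 in the KO mice, against 7257 in WT10 and 2365 in WT5 (-2.87, SE 0.56, limma adjusted p = 1.00). The deleted gene itself thus did not pass over all genes, and transcripts were left in all KO libraries.

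Per kb of exon, Pard6g and Prkci were the most abundant members in both layers and both genotypes, and Pard6g was always first. Levels were computed as normalized counts per kb of exon, scaled so that the listed genes of each library have the same sum. Pard6g, whose product links the kinase to CDC42, stood at 73.4 ± 22.0 in KO ameloblasts (SD, n = 3) and 80.6 ± 8.29 in WT ameloblasts (n = 2), and at 68.4 ± 6.53 in KO and 76.2 ± 7.39 in WT stratum intermedium. Its range did not overlap with that of Prkci in any of the 4 groups. Prkci, the kinase gene that accounted for most atypical kinase transcripts, stood at 40.5 ± 5.85 in KO and 31.2 ± 17.2 in WT ameloblasts, and at 33.2 ± 4.79 in KO and 38.6 ± 25.9 in WT stratum intermedium. Crb3 and Pard6a took the next places, between 9.65 and 15.4 on average, and their ranges overlapped in every group. The median listed gene of a library stood at 6.34 to 8.86 in ameloblasts and 8.66 to 9.48 in the stratum intermedium.

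**Figure D1:**
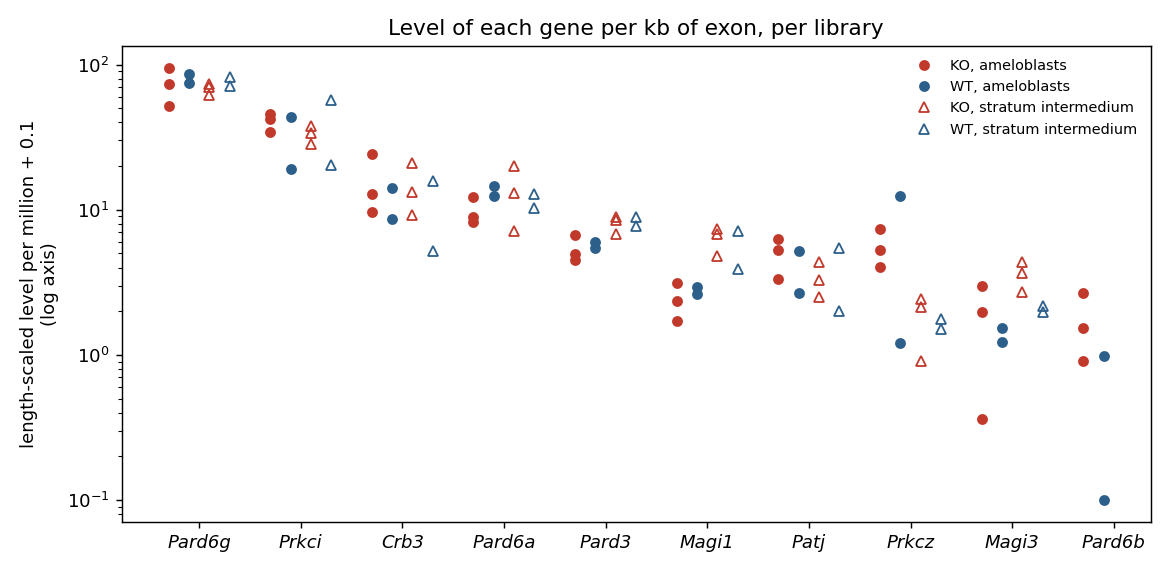
Length-scaled level plus 0.1 of each member in every library (log axis, so that a level of 0 is drawn at 0.1), with KO and WT ameloblasts as filled circles and KO and WT stratum intermedium as open triangles. Within each group Pard6g and Prkci stand above all others, whereas the lowest Prkci points lie among the highest Crb3 points of other groups, and Pard6b is shown for ameloblasts only, with 1 WT library at 0.

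Scaffolds with long transcripts stood lower. Pard3 was at 5.27 ± 1.16 in KO and 5.63 ± 0.434 in WT ameloblasts, and at 7.98 ± 1.16 in KO and 8.23 ± 0.928 in WT stratum intermedium. With the longest transcript in place of all exons as its length, Pard3 rose to 10.4 in KO and 11.1 in WT ameloblasts and to 15.6 in KO and 16.2 in WT stratum intermedium, so its place among the members depends on which exons are counted. Patj averaged between 3.27 and 4.88 over the 4 groups. Magi1 was at 2.29 ± 0.696 in KO and 2.69 ± 0.216 in WT ameloblasts, and at 6.22 ± 1.36 in KO and 5.43 ± 2.29 in WT stratum intermedium. The lowest places were held by Pard6b and Magi3 in ameloblasts and by Prkcz in the stratum intermedium, where Prkcz stood at 1.73 ± 0.811 in KO and 1.54 ± 0.180 in WT. Ranges of Magi3 and Pard6b overlapped in KO but not in WT ameloblasts.

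Between the layers of the same mouse, Prkcz was higher in ameloblasts and the MAGI genes were lower. Both tables were normalized separately, so these differences are described without a test, as the ameloblast minus stratum intermedium difference in log2(normalized count + 1) after subtracting the median difference of the 15625 genes listed in both tables. Prkcz, which encodes the zeta kinase, averaged 1.86 ± 1.40 (SD over 5 mice). The 5 differences of Prkcz were 2.34, 1.00 and 2.86 in KO1, KO3 and KO9, against 3.24 in WT10 and -0.14 in WT5. It was thus higher in ameloblasts in 4 of 5 mice, and 1.22% of genes had a larger median difference in either direction. In normalized counts Prkcz stood at 507, 231 and 275 in KO ameloblasts, against 764 in WT10 and 67.6 in WT5 ameloblasts, and at 110.2, 129 and 42.0 in KO stratum intermedium, against 86.4 in WT10 and 84.1 in WT5. On the scale of each table, 4 of 5 ameloblast libraries lay above all stratum intermedium libraries, and WT5 overlapped with them.

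Magi1 averaged -0.95 ± 0.65 and was lower in ameloblasts in 5 of 5 mice, with differences of -1.17, -0.40 and -1.84 in the KO mice, against -1.10 in WT10 and -0.21 in WT5. On the scale of each table, all 5 ameloblast values, at 263, 294 and 144 in KO and 263 and 290.0 in WT, lay below all 5 stratum intermedium values, at 656, 435 and 584 in KO and 610.5 and 379.6 in WT. The related scaffold gene Magi3 averaged -0.90 ± 1.10 and was lower in 5 of 5 mice, by the widest margin in KO1 (-2.74) and by next to nothing in WT10 (-0.01). Pard3 was lower in ameloblasts in 5 of 5 mice by a small and even amount, -0.27 ± 0.09. Patj (0.72 ± 0.53) and Pard6g (0.38 ± 0.17) were higher in 5 of 5 mice, but only in 3 and 4 when each library was scaled by its sum in place of its median gene. Prkci (0.38 ± 0.34) and Crb3 (0.46 ± 0.49) were higher in 4 of 5 mice, and under that scaling Prkci kept 4 with a mean of 0.13 and Crb3 had 3 with a mean of 0.22. Pard6a (0.18 ± 0.93) took no steady direction.

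**Figure D2:**
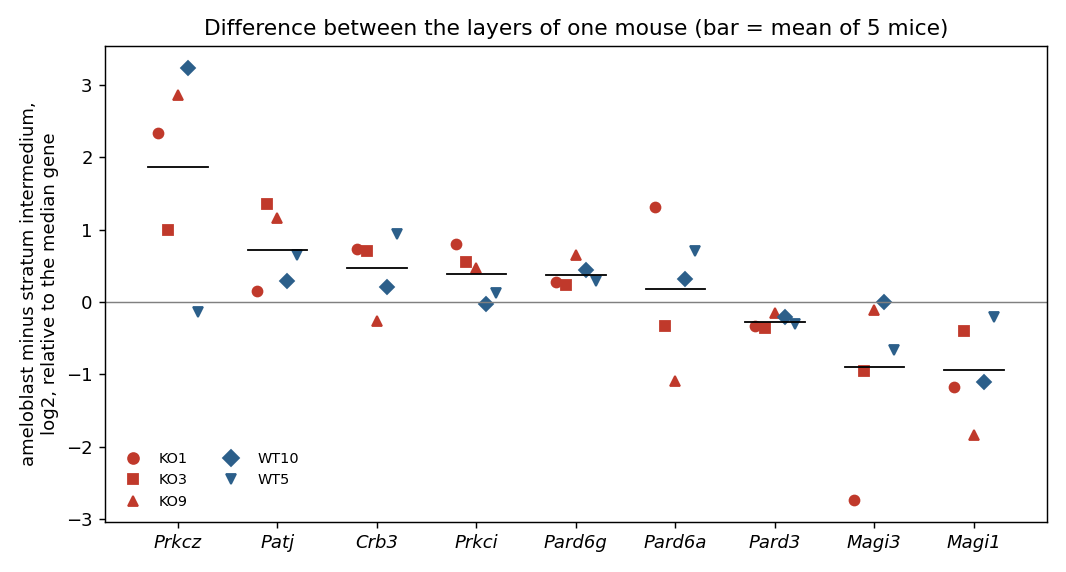
Ameloblast minus stratum intermedium difference of each member within each mouse (log2, relative to the median gene), with KO mice in red, WT mice in blue and a bar at the mean of 5 mice. Prkcz lies highest with WT5 near 0, and Magi1, Magi3 and Pard3 lie below 0 in all 5 mice.

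Of the 9 members in both tables, 5 kept 1 direction in all 5 mice, 2 above and 3 below. Among all 15625 genes, 21.1% did so, 11.1% above and 9.97% below. Epithelial markers as a group made up a larger share of the ameloblast library than of the stratum intermedium library in 5 of 5 mice, at 0.441%, 0.392% and 0.425% in KO and 0.661% and 0.162% in WT ameloblasts, against 0.292%, 0.179% and 0.142% in KO and 0.382% and 0.122% in WT stratum intermedium. The list did not move as one. In deposited values Krt14, Krt5 and the E-cadherin gene Cdh1 were higher in ameloblasts in 5 of 5 mice, Epcam and Esrp1 in 4, Trp63 in 2 and Grhl2 in 1. Endothelial markers, 5 of 5 listed, ran the other way in 5 of 5 mice, at 0.00404% to 0.0170% of ameloblast libraries and 0.0235% to 0.0309% of stratum intermedium libraries. Fibroblast markers did too as a sum, at 0.204% to 0.528% and 0.341% to 0.669%. In deposited values Col3a1, Pdgfra, Pdgfrb and Lum were lower in ameloblasts in every mouse. Dcn was higher there in KO1 (30820 against 16550), KO3 (41000 against 19880) and WT10 (15850 against 5593), and lower in KO9 and WT5. The part of these other cells in the layer differences of the members was not tested.

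The ratio of related genes in 1 library does not depend on the scaling of the table and can be compared between layers. Prkci exceeded Prkcz in all 10 libraries, and Prkci made up 86.3%, 91.4% and 86.8% of the length-scaled pair in KO ameloblasts, against 77.8% in WT10 and 94.5% in WT5. In the stratum intermedium Prkci made up 94.8%, 93.6% and 97.2% in KO, against 97.2% in WT10 and 93.5% in WT5. The log2 ratio of Prkci to Prkcz was 1.47 lower in ameloblasts (2.74 ± 0.85 against 4.22 ± 0.64, SD, n = 5 each), lower in 4 of 5 mice. In an exact two-sided sign-flip permutation over the 5 mice p was 0.125 over 32 arrangements, and 0.375 after adjustment over the 3 ratios. Since at least 2 of the 32 arrangements are as extreme as any result, 5 mice could not pass a threshold of 0.05 in this test. Without the pairing by mouse the exact permutation p was 0.0238 before adjustment. That version treats the 10 libraries of 5 mice as independent, which they are not if the prefixes are mice, so it is not read as a layer difference. Magi1 to Magi3 (difference -0.05, exact permutation p = 0.9375) and Pard6g to Pard6a (0.20, exact permutation p = 0.6875) had no steady direction. The Pard6g ratio was added after the tables had been seen, because Pard6b is not listed in the stratum intermedium.

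**Figure D3:**
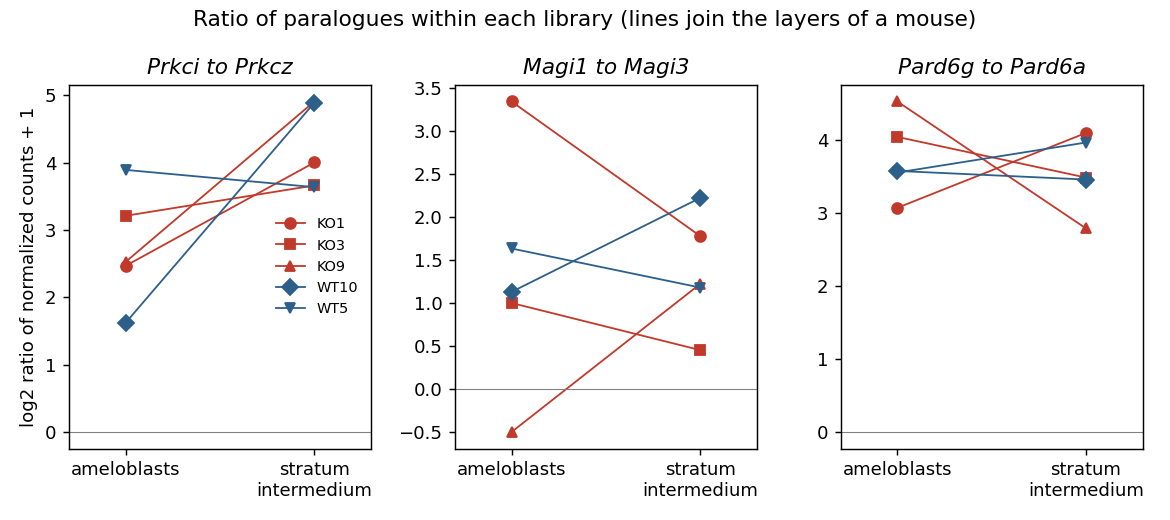
Log2 ratio of normalized counts plus 1 for 3 pairs of related genes in each library, ameloblasts on the left and stratum intermedium on the right of each panel, with a line joining the layers of each mouse (KO red, WT blue). Prkci to Prkcz is lower in ameloblasts in every mouse but WT5, and the lines of the other pairs cross.

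In ameloblasts the comparison of KO with WT asked whether loss of claudin-10, itself a tight junction protein, goes with a change in the polarity genes. No member passed the test. Of the 10 members, 5 were higher and 5 lower in KO, the median difference on the log2 scale being 0.10, against 0.04 for all 16212 genes tested with limma. Of all genes 0.0% were called at an adjusted p of 0.05, and 3.07% had an unadjusted p under 0.05, as did 0 of the 10 members. The genotypes were fully apart for 0 members, against 18.4% of all genes (9.09% with KO above WT and 9.26% with KO below). Without WT10 the difference was 2.22 for Prkcz and 1.06 for Prkci, and without WT5 it was 5.58 for Pard6b. These fits with a single WT library assume that it varies like the KO libraries.

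Pard3, the central scaffold, and Pard6g had the narrowest intervals in ameloblasts. Pard3 stood at 784, 587 and 800.5 normalized counts in KO1, KO3 and KO9, against 845 in WT10 and 745 in WT5. Its log2 difference was -0.15 (SE 0.27, 95% interval -0.79 to 0.50). Pard6g stood at 1801, 2141 and 2518 in KO, against 2304 in WT10 and 2621 in WT5, a difference of -0.20 (SE 0.24, interval -0.77 to 0.36). For both genes the interval stays within 1 log2 unit of 0. Pard6a stood at 213, 128 and 108 in KO, against 192 in WT10 and 221 in WT5, and KO1 overlapped with the WT libraries (difference -0.52, SE 0.45).

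The kinase genes were lower in WT5 than in WT10. Prkci stood at 2814, 2152 and 1588 in KO, against 2357 in WT10 and 1017 in WT5, with all KO libraries above WT5 and 1 above WT10 (difference 0.46, SE 0.41). Prkcz stood at 507, 231 and 275 in KO, against 764 in WT10 and 67.6 in WT5, so all KO libraries fell between the WT libraries. Its difference was 0.48 with a wide interval of -1.78 to 2.74. Without WT5 it was -1.26, and without WT10 it was 2.22 (limma adjusted p = 0.513), so the direction rests on which WT library is used. The order of Prkcz over the 5 ameloblast libraries, WT10, KO1, KO9, KO3, WT5, was also that of the epithelial marker share, and the part of that share in the value was not tested. In the stratum intermedium the orders of Prkcz and of that share differed. How many of all genes follow such an order was not counted.

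Pard6b was close to the floor of the table. It stood at 97.3, 25.5 and 40.5 in KO, and was listed at 0 in WT10 and at 28.9 in WT5. KO3 lay below WT5, so the groups overlapped. Other genes were also listed at 0 in WT10, and the fitted difference of 3.12 (SE 1.55, limma adjusted p = 0.989) depends on that 0: it was 0.67 without WT10, 5.58 without WT5 and 1.69 with a pseudocount of 8. Every listed gene reached 10 in 3 or more libraries of its table, and Pard6b did so in 4 ameloblast libraries. The log2 ratio of Pard6b to Pard6a was higher in every KO library, at -1.12, -2.29 and -1.39, than in WT10 at -7.59 and WT5 at -2.89, and that of Pard6b to Pard6g too. Each had an exact two-sided permutation p of 0.1, the smallest that 3 against 2 libraries allow, and 0.4 after adjustment over 8 ratio tests. The value of WT10 is set by the pseudocount: the KO minus WT difference of the Pard6b to Pard6a ratio was 3.64, 2.19 with a pseudocount of 8 and 1.29 without WT10. That of Pard6b to Pard6g was 3.33, 1.90 with a pseudocount of 8 and 0.97 without WT10.

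For the Crumbs and MAGI genes of ameloblasts, KO and WT libraries overlapped throughout. Crb3, the membrane anchor of its complex, stood at 418, 183 and 126 in KO, against 216 in WT10 and 129 in WT5, with KO1 high and KO9 level with WT5 (difference 0.35, SE 0.59). Patj stood at 473, 627 and 683 in KO, against 653 in WT10 and 326 in WT5, with WT5 the lowest (difference 0.35, SE 0.38). Magi3 was at 25.0 in KO1, below all other ameloblast libraries, and at 147 and 205 in KO3 and KO9, against 120.0 in WT10 and 92.8 in WT5 (difference -0.20, SE 0.91, and 0.71 without KO1). KO1 ameloblasts also had the largest share of ameloblast markers, 9.12%, against 2.18% to 4.67% in the other ameloblast libraries. Whether that share bears on the low Magi3 and high Crb3 of KO1 was not tested. Magi1 differed by -0.31 (SE 0.43), with KO9 at 144 as the lowest library.

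**Figure D4:**
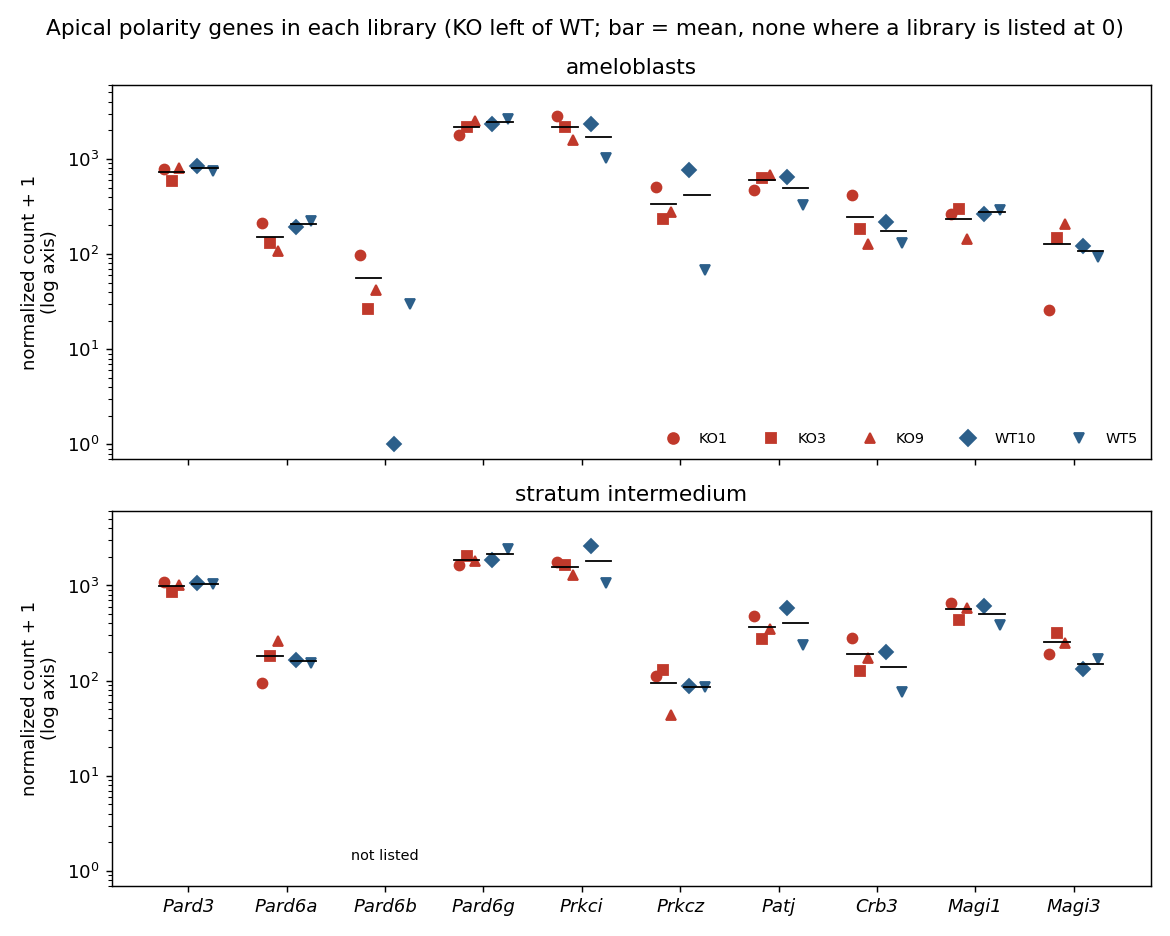
Normalized count plus 1 of each member in every library on a log axis, ameloblasts above and stratum intermedium below, with KO (red) left of WT (blue), a symbol for each mouse and a bar at the mean of a group. KO and WT points overlap for every member except Magi3 in the stratum intermedium.

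In the stratum intermedium the same question was asked of the layer behind the ameloblasts. No member passed there either. Of the 9 members 4 were higher and 5 lower, the median difference on the log2 scale being -0.02, against 0.02 for all 16543 genes. Of all genes 0.0% were called and 2.06% had an unadjusted p under 0.05, against 0 of 9 members. The genotypes were fully apart for 1 member, Magi3, with KO above WT, against 15.2% of all genes (7.76% with KO above WT and 7.44% with KO below). Magi3 stood at 191, 318 and 250.1 in KO, against 130.1 in WT10 and 167 in WT5. Its difference of 0.74 (SE 0.42, 95% interval -0.23 to 1.72) had a limma adjusted p of 1.00. Without WT5 the difference of Prkci was -0.73, from a fit with a single WT library.

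Pard3 and Pard6g had the narrowest intervals here too. Pard3 stood at 1094, 845 and 1008 in KO, against 1056 in WT10 and 1034 in WT5, a difference of -0.10 (SE 0.23, interval -0.64 to 0.44). Pard6g stood at 1640, 2036 and 1819 in KO, against 1829 in WT10 and 2412 in WT5, a difference of -0.20 (SE 0.22, interval -0.72 to 0.31). The spread of Pard6a was set by the KO mice, at 94.5, 180.2 and 262, against 165 in WT10 and 153 in WT5 (difference 0.05, SE 0.53).

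Prkci, Patj and Crb3 had their lowest stratum intermedium value in WT5 and a higher one in WT10. Prkci stood at 1780, 1640 and 1290 in KO, against 2589 in WT10 and 1058 in WT5, so all KO libraries fell between both WT libraries (difference -0.09, SE 0.38). The order of Prkci over the 5 libraries was that of the epithelial marker share, whose part was not tested. In ameloblasts the orders differed, with Prkci highest in KO1 and the share highest in WT10. The share of all genes with such an order was not counted. Patj stood at 472, 274 and 345 in KO, against 577 in WT10 and 233 in WT5 (difference -0.05, SE 0.47). Crb3 stood at 280, 125 and 170.3 in KO, against 201 in WT10 and 75.3 in WT5 (difference 0.55, SE 0.60). For Magi1 the difference was 0.19 (SE 0.34) and for Prkcz -0.02 (SE 0.67), with KO and WT libraries overlapping.

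**Figure D5:**
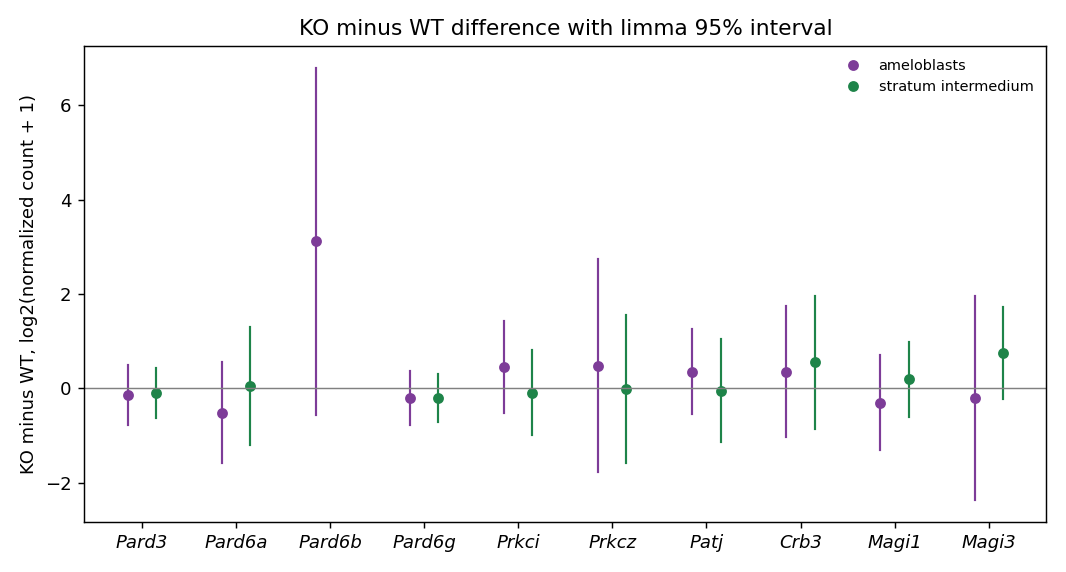
KO minus WT difference of each member in log2(normalized count + 1) with its limma 95% interval (vertical lines), ameloblasts in purple and stratum intermedium in green. All 19 intervals include 0, the narrowest being those of Pard3 and Pard6g, and Pard6b has the widest.

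The difference in KO effect between the layers was tested on the paired ameloblast minus stratum intermedium values, in which a constant factor between tables cancels. Of 9 members 0 passed, against 0.0% of the 15567 genes tested, and 0 members had an unadjusted p under 0.05, against 4.8% of genes. The smallest p among the members was that of Prkci, with a difference of 0.55 (SE 0.28, 95% interval -0.16 to 1.26, limma adjusted p = 0.864). Its layer differences were 0.81, 0.55 and 0.47 in KO1, KO3 and KO9, against -0.03 in WT10 and 0.12 in WT5. Epcam, an epithelial marker, had 0.74 (SE 0.37) in the same test. Pard6g had a difference of -0.00 (SE 0.29), and Magi3 one of -0.95 (SE 0.86). The same test of the Prkci to Prkcz ratio gave 0.05 (exact permutation p = 1, n = 3 and 2).

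Partners of these complexes were taken as 3 lists of 56 genes in all, and the same tests were read for them. In ameloblasts 22 of 25 apical partner genes were tested, 11 higher and 11 lower in KO (median 0.02), and 2 had an unadjusted p under 0.05, both higher. F11r, which encodes the junctional adhesion molecule JAM-A that binds PAR3, stood at 4309, 3440 and 3604 in KO, against 2557 in WT10 and 1601 in WT5 (difference 0.90, SE 0.27, limma adjusted p = 0.989). Pard3b, a relative of Pard3, stood at 1452, 1235 and 1503 in KO, against 946 in WT10 and 739 in WT5 (difference 0.73, SE 0.25, limma adjusted p = 0.989). KO and WT libraries were apart for both genes, which were named for their small p, and not for Pard3 itself. Among all genes 18.4% were apart, 9.09% with KO above WT, and 3.07% had an unadjusted p under 0.05. In the lists 3 of 22 apical partners, 2 of 17 basolateral and 3 of 13 planar polarity genes were apart. Without WT5 the difference of F11r was 0.56. Rescaling to equal epithelial markers gave 0.37 for F11r and 0.20 for Pard3b. The markers used for it were Cdh1, Epcam, Krt5 and Krt14, without Trp63, Grhl2 and Esrp1 of the list above. This rescaling shifts the differences of all genes by the same amount, so differences relative to the median gene stay as they were. It does not measure the epithelial part of a single gene. Of 17 basolateral genes, which include Scrib, the Dlg genes and the LGL genes, 7 were higher and 10 lower (median -0.06), with 0 at that p. Of 13 planar polarity genes, which orient cells within the plane of the sheet, 10 were higher and 3 lower (median 0.33), but 6 and 7 without WT5 (median -0.06), and 4 and 9 when libraries were rescaled to equal epithelial markers (median -0.20, with that of all genes at -0.50). Of these the receptor genes Fzd6, at 2210, 2424 and 2635 in KO against 1811 and 1012 in WT, and Fzd3, at 4543, 5409 and 7026 in KO against 4467 and 2030 in WT, had an unadjusted p under 0.05. Without WT5 the difference of Fzd6 was 0.42, against 0.84 with all libraries, and that of Fzd3 was 0.32, against 0.89. Rescaling to equal epithelial markers gave 0.31 for Fzd6 and 0.36 for Fzd3.

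In the stratum intermedium 12 of 13 planar polarity genes were lower in KO and 1 higher (median -0.33), but 7 and 6 without WT10 (median -0.15). Apical partners were higher in 10 and lower in 13 of 23 cases (median -0.06), and basolateral genes higher in 7 and lower in 10 (median -0.05). Magi2, the third MAGI gene, had the smallest p, with 293, 343 and 272 in KO against 424 in WT10 and 670.0 in WT5 (difference -0.82, SE 0.34, limma adjusted p = 1.00). Mpp5, which encodes the Crumbs partner PALS1, stood at 877, 806 and 806 in KO against 1249 in WT10 and 1102 in WT5 (difference -0.50, SE 0.22, limma adjusted p = 1.00). Fzd3 stood at 1268, 1666 and 1934 in KO against 2992 in WT10 and 2019 in WT5 (difference -0.62, SE 0.27). KO lay below WT for each of these 3 genes, which were named for their small p, and none passed over all genes. Among all genes 7.44% had KO below WT, and 15.2% were apart in either direction. In the lists 5 of 23 apical partners, 1 of 17 basolateral and 4 of 13 planar polarity genes were apart. Without WT5 the difference of Magi2 was -0.49, and without WT10 that of Fzd3 was -0.34. Rescaling to equal epithelial markers, which again shifted all genes alike, gave -0.33 for Mpp5, with the median of all genes at 0.19. In the test between layers Fzd3 (1.51, SE 0.43, limma adjusted p = 0.864) and F11r (0.86, SE 0.28, limma adjusted p = 0.864) came first, followed by the planar polarity gene Prickle2 (1.22, SE 0.48). Rescaling to equal epithelial markers gave 0.81 for Fzd3, 0.16 for F11r and 0.52 for Prickle2, with the median of all genes at -0.69.

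The same lists were read between the layers. Of 13 planar polarity genes, 6 were higher in ameloblasts in 5 of 5 mice and 1 was lower, 46.2% and 7.69% of them, against 11.1% and 9.97% of all genes. The genes named here were chosen after their values were seen. Celsr1 averaged 2.26 ± 0.99, Vangl2 1.79 ± 0.96 and Vangl1 -1.27 ± 0.72. Of 17 basolateral genes 4 were higher and 1 lower in all mice. Llgl2 averaged 1.77 ± 0.43 and its relative Llgl1 -0.52 ± 0.28, so the LGL genes went opposite ways. Of 22 apical partners 2 were higher (Pard3b and Wwc1) and 3 lower (Ect2, Jam3 and Wwc2). The marker shares given above moved between the layers as well, and their part in these values was not tested.

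Over the 10 libraries, with log2 values centred within each layer, Prkci was most like Bcl11a (r = 0.97), Amd1 and Ndufaf1. Crb3 was most like Arhgef16 (r = 0.97), Zfp444 and Dnase2a, and Pard3 most like Ndst2 (r = 0.95), Gpr162 and Arhgap27os2. These are the highest of 15567 genes over libraries that come from 5 mice and share their scaling, and they are given as a description.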

How the data were processed

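Ameloblasts and stratum intermedium were captured by laser from frozen hemi-mandible sections and sequenced with a stranded polyA kit, per the labels' protocols. The submitters' processing notes name GRCm38, the aligner STAR 2.5.2b, the counter featureCounts, the normalization tool DESeq, and FastQC and Picard 2.8.1. The deposited values are a signal scaled by the authors: normalized counts per gene, 1 table for each layer, with Ensembl release 101 and without outliers per the labels, which do not say what was left out. They lie near, but not on, common steps, so whole reads were not recovered and the depth of a library is unknown. No interval for counting error is given.

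Values were analysed as log2(value + 1) with limma 3.58.1 in R 4.3.3 (prior variance following the mean, tested on simulated data), leaving out genes whose mean was under 10, and p-values were adjusted by Benjamini-Hochberg over all genes at a threshold of 0.05. Fold changes on this scale understate those of low genes. A count model was not used, because the values are not counts. The difference in KO effect between layers was fitted on the ameloblast minus stratum intermedium value of each library prefix. There the prior variance followed the mean layer difference of a gene, not its level. Deviations from group means of same-prefix libraries correlated between the layers (r = 0.259, 0.219 and 0.202 in KO1, KO3 and KO9, and 0.311 in WT10 and WT5). With only WT10 and WT5 in a group their deviations mirror each other, so their r is the same by construction. Libraries of different prefixes were not compared across layers, so the pairing rests on the names. Levels used GENCODE exon lengths. Ratios of related genes were tested by exact permutation. Promoters came from RefSeq. The text names all 10 members, Cldn10, Cdh1, Epcam, the partner genes with an unadjusted p under 0.05 (or the 3 smallest), and the 3 genes most like Pard3, Prkci and Crb3. The members and lists were chosen with earlier results of these data known.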

Additional observations from a re-analysis of the deposited data

How the results depend on the processing

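No member passed the adjusted threshold in KO against WT, or in the difference between layers, under any setting run: pseudocounts of 0.5 and 8, a minimum mean of 50 or none, quantile normalization, epithelial rescaling, library weights, sex, blocks, a threshold of 0.1 and libraries left out. The 2 WT libraries per layer limit every such interval, and the depth behind the values is unknown. In fits with all libraries the count of genes called stayed at 0, except 7 in ameloblasts and 8 in the stratum intermedium under epithelial rescaling. That rescaling shifts all genes of a comparison by the same amount, set by Cdh1, Epcam, Krt5 and Krt14 only. It moved the median of all genes from 0.035 to -0.50 in ameloblasts and from 0.017 to 0.19 in the stratum intermedium. In the difference between layers it moved that median from 0.0069 to -0.69. Where a direction turned, the cause was not tested. Epithelial rescaling turned Crb3 (-0.18), Patj (-0.18), Prkci (-0.073) and Prkcz (-0.051) in ameloblasts. It turned Pard3 (0.073), Patj (0.12), Prkci (0.081) and Prkcz (0.15) in the stratum intermedium, and Patj (-0.30), Prkci (-0.15) and Prkcz (-0.20) in the difference between layers. Sex as a covariate turned Crb3 (-0.40), Magi3 (0.95), Pard3 (0.013) and Pard6g (0.035) in ameloblasts, and Magi3 (0.19), Pard3 (0.066) and Pard6g (0.24) in the difference between layers. Only KO1 and KO3 had high Xist, so with sex in the fit the KO difference rests on KO9 alone against both WT mice. The library group as a block turned Crb3 (-0.13) and Magi3 (0.71) in ameloblasts and Epcam (-0.21) in the stratum intermedium. What this grouping stands for is not explained. In both layers KO3 shared a group with WT5 and KO9 with WT10, whereas KO1 was alone in its group. The library group block therefore gave the same differences as leaving out KO1, and is not a separate check. Library weights turned Magi3 in ameloblasts (0.18), and Epcam (-0.19) and Prkcz (0.060) in the stratum intermedium. A pseudocount of 8 turned the KO minus WT ratio of Prkci to Prkcz in ameloblasts (0.020).

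Replicate numbers in the titles pair no samples: same-numbered KO and WT libraries deviated with r of 0.0862 and -0.116 in ameloblasts and -0.187 and -0.133 in the stratum intermedium. With the replicate number as a block 0 genes were called in either layer, and Epcam (-0.063), Pard6a (-0.28), Prkci (0.046) and Prkcz (0.48) turned in the stratum intermedium. The highest replicate number is found in KO only. This block therefore gives the same differences as leaving out KO3 in ameloblasts and KO9 in the stratum intermedium. Without the replicate block by mouse, the layer difference of the Prkci to Prkcz ratio was -1.47 with an exact permutation p of 0.0238. This p takes both layers of a mouse as independent, whereas the paired sign-flip permutation gave p = 0.125.

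With the longest transcript as length and KO and WT libraries pooled, the rank of Pard3 was 5 and of Prkcz 6 in ameloblasts, and that of Pard3 was 3, Crb3 4 and Pard6a 5 in the stratum intermedium. Within a genotype the order differed: Pard3 (10.4) was above Pard6a (9.48) and Prkcz (6.67) below Patj (6.88) in KO ameloblasts, and Pard6a (11.3) was above Crb3 (10.6) in WT stratum intermedium. Scaling by the library sum, added after seeing the data, turned the layer difference of Pard6a (-0.067).

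With 1 library left out in turn, these values took both signs. In ameloblasts KO minus WT ran between -0.17 and 1.72 for Cdh1, -0.13 and 0.73 for Crb3, -0.50 and 0.010 for Magi1, -0.78 and 0.71 for Magi3, -0.15 and 0.85 for Patj, -0.15 and 1.06 for Prkci, and -1.26 and 2.22 for Prkcz. In the stratum intermedium it ran between -0.15 and 1.25 for Crb3, -0.70 and 0.72 for Epcam, -0.15 and 0.53 for Magi1, -0.18 and 0.0073 for Pard3, -0.28 and 0.45 for Pard6a, -0.70 and 0.60 for Patj, -0.73 and 0.56 for Prkci, and -0.32 and 0.48 for Prkcz. The difference between layers ran between -0.54 and 0.13 for Crb3, -0.12 and 0.028 for Pard3, -0.12 and 0.11 for Pard6g, and -1.23 and 2.22 for Prkcz. The KO minus WT ratio of Prkci to Prkcz ran between -1.16 and 1.11 in ameloblasts and -0.70 and 0.55 in the stratum intermedium, that of Magi1 to Magi3 between -1.13 and 0.79 in ameloblasts, and that of Pard6g to Pard6a between -0.0084 and 0.72 in ameloblasts and -0.58 and 0.079 in the stratum intermedium. The layer difference of Magi1 to Magi3 ran between -0.45 and 0.37, and that of Pard6g to Pard6a between -0.19 and 0.50.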
